A study of Mus musculus with 44 samples.

Results

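The genes described here are the chemokines and chemokine receptors measured in the left ventricle of PKCε transgenic and FVB/N mice. A gene was included where its symbol in the platform annotation is Ccl, Cxcl, Ccr, Cxcr or Ackr followed by a number, or is Cx3cl1, Cx3cr1, Xcl1 or Pf4. This rule uses names and no measured value, and it found 51 of the 12394 genes with a probe set of their own, 32 ligands and 19 receptors. The PKCε mice carried a rabbit PKCε with the activating A159E mutation on the FVB/N background, driven by the mouse Myh6 promoter, so the transgene acts in cardiomyocytes while the arrays measured RNA of the whole ventricle. Mice of both lines received 30 mg/kg of antibody by intraperitoneal injection, 2 times per week for 3 months from an age of 3 months, and tissue was taken at 6 months. The 4 groups were 12 PKCε mice given FG-3149, which binds CTGF (connective tissue growth factor), 10 PKCε mice given nonimmune mouse IgG, 12 nontransgenic FVB/N (FVB) mice given FG-3149 and 10 FVB mice given IgG, with 1 array per mouse. The groups held 6 females and 6 males, 5 females and 5 males, 6 females and 6 males, and 7 females and 3 males, in that order. Mouse numbers ran from 38 to 191, 192 to 362, 338 to 349 and 420 to 443 in the same order. Those of the groups compared with each other did not overlap. In the PKCε IgG group, males were 192 to 196 and females 322 to 362. Whatever goes with these numbers cannot be told apart from line, antibody or the sex difference of that group.

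Chemokines are small secreted proteins that direct the movement of leukocytes by binding G protein-coupled receptors on their surface. Ligands with the CXC motif and the ELR sequence, such as Cxcl1 and Cxcl2, attract neutrophils through Cxcr2, many CC ligands attract monocytes, eosinophils and T cells, and atypical receptors bind chemokines without G protein signalling and take them up. In the heart, chemokines are made by macrophages, fibroblasts, endothelium and other cells, and resident macrophages commonly carry Cx3cr1 or Ccr2.

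Several chemokine genes lie beside each other in the genome. Of the members, 14 are on chromosome 11, 11 on chromosome 9 and 9 on chromosome 5, and no coding gene lies between Cxcl1 and Cxcl2, between successive members of the run Ccl2, Ccl7, Ccl11, Ccl12, Ccl8 and Ccl1, or between those of the run Ccl5, Ccl9, Ccl6, Ccl3 and Ccl4. The 250 bases upstream of 1 annotated start per gene were available in RefSeq sequence (GRCm38.p6) for 38 of the 51 members. They were searched on both strands for an NF-κB site, spelled GGG, any 2 bases and then TTTCC or TTCCC, and 7 of the 38 members held a match (18.4%), against 734 of 27025 upstream sequences in all (2.72%). Members with a match were Ccl20, Ccl9, Ccr3, Cxcl1, Cxcl10, Cxcl2 and Cxcl9, and 5 of these belong to the 15 members that were lower in PKCε mice under IgG. Of those 15 members, 9 had an upstream sequence, while 6 of the 7 members that were higher had one and 0 of those 6 held a match. Of the 29 members not called, 23 had a sequence and 2 of these held a match. The shares with a match among all genes called higher or lower were not computed. The 5 sequences of the lower members are shown because they are the matches among the called members, written 5′ to 3′ on the gene's strand with the matches in capitals.
Cxcl1: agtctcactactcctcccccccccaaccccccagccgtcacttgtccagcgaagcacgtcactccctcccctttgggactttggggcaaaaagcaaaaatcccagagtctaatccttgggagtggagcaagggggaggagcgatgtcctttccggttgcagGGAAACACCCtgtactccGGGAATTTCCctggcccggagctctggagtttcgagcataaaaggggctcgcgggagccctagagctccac
Cxcl2: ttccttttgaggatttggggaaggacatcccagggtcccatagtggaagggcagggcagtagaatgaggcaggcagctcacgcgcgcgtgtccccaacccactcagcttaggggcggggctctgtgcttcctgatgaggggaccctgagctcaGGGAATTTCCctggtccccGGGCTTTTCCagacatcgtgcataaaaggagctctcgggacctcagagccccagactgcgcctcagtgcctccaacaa
Ccl9: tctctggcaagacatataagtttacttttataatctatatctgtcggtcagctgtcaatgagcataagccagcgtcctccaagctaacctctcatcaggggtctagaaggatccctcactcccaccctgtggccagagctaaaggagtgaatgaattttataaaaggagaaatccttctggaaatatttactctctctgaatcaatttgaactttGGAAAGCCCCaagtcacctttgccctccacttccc
Ccl20: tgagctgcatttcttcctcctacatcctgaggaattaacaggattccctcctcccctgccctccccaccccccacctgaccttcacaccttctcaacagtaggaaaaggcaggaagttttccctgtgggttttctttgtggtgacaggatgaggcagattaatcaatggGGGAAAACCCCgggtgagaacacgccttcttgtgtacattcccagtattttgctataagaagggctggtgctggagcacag
Ccr3: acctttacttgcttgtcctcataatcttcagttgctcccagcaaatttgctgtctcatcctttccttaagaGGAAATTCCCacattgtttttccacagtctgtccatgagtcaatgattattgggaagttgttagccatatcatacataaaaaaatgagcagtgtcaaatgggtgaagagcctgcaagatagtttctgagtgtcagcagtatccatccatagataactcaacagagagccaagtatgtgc
The Cxcl1 sequence is chr5:90890995-90891244, plus strand, and its matches begin 89 and 71 bases before the start. Cxcl2 is chr5:90903649-90903898, plus strand, with matches 97 and 78 bases before the start, so the neighbouring genes each hold a pair of matches in the same stretch. The Ccl9 sequence, chr11:83578637-83578886 on the minus strand, has 1 match at 35 bases. That of Ccl20, chr1:83116516-83116765 on the plus strand, has a pair of overlapping matches at 81 and 80 bases. That of Ccr3, chr9:124021721-124021970 on the plus strand, has 1 match at 179 bases. The Ccr3 window lies inside the span of the gene, 124017825 to 124031692, so it is upstream of an internal start only. An interferon-stimulated response element, spelled GAAA, any 2 bases and GAAA and searched on both strands, was in 2 of the 38 members (Cxcl10 and Cxcl14), or 5.26% against 3.04% of all upstream sequences. A TATAAA box on the gene's strand was in 10 of the 38 (26.3%, against 8.12%). A match gives only the letters of these windows.

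The deposited values are ratios to each probe set's own median over the 44 arrays, used here as log2 values, so 0 is the median array and levels of different genes cannot be set against each other. How bright or how clearly detected a probe set was is not known from them, and 0 of the 2244 member values lay at the lowest deposited ratio of 0.01. The members varied more between arrays than other genes, with a median SD of 0.333 log2 units against 0.221 over all genes. The mouse gene Prkce was higher in PKCε mice than in FVB mice under IgG by 0.49 ± 0.15 (SE, adjusted p = 0.00596 in limma, adjusted over all genes of the comparison, as every adjusted p of a difference given here), although nothing in the labels says whether its probes detect the rabbit transgene. Connective tissue growth factor itself (Ccn2) was higher by 0.74 ± 0.23 in the same comparison (adjusted p = 0.00756). Some arrays stood apart in markers of neighbouring tissue: 10 arrays were high in atrial genes, 2 of the PKCε FG-3149, 2 of the PKCε IgG, 1 of the FVB FG-3149 and 5 of the FVB IgG arrays. PKCε IgG replicates 9 and 10 were high in the lung gene Sftpc (9.32 and 3.53). FVB FG-3149 replicate 11 is labelled female and had a Uty value of 3.63.

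Those arrays also carried the most extreme values of a few ligands, which are named here after their values were seen. The lung chemokine Cxcl15 reached 6.82 on PKCε IgG replicate 9 and 1.30 on FVB IgG replicate 4, an array with a Scgb1a1 value of 9.36. On PKCε IgG replicate 9, the monocyte attractant Ccl8 was at 3.21, the T cell receptor Cxcr6 at 2.17 and the B cell attractant Cxcl13 at 2.79. Cxcl13 was highest on FVB IgG replicates 1, 2 and 3, at 5.63, 5.93 and 4.77, where the mean of the atrial markers was 7.74, 8.47 and 8.14. FVB IgG replicate 4 had a similar atrial level of 7.87 with Cxcl13 at 0.51. Values without the atrial-high or the lung-high arrays are given with each comparison below where a call was lost.

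**Figure D1:**
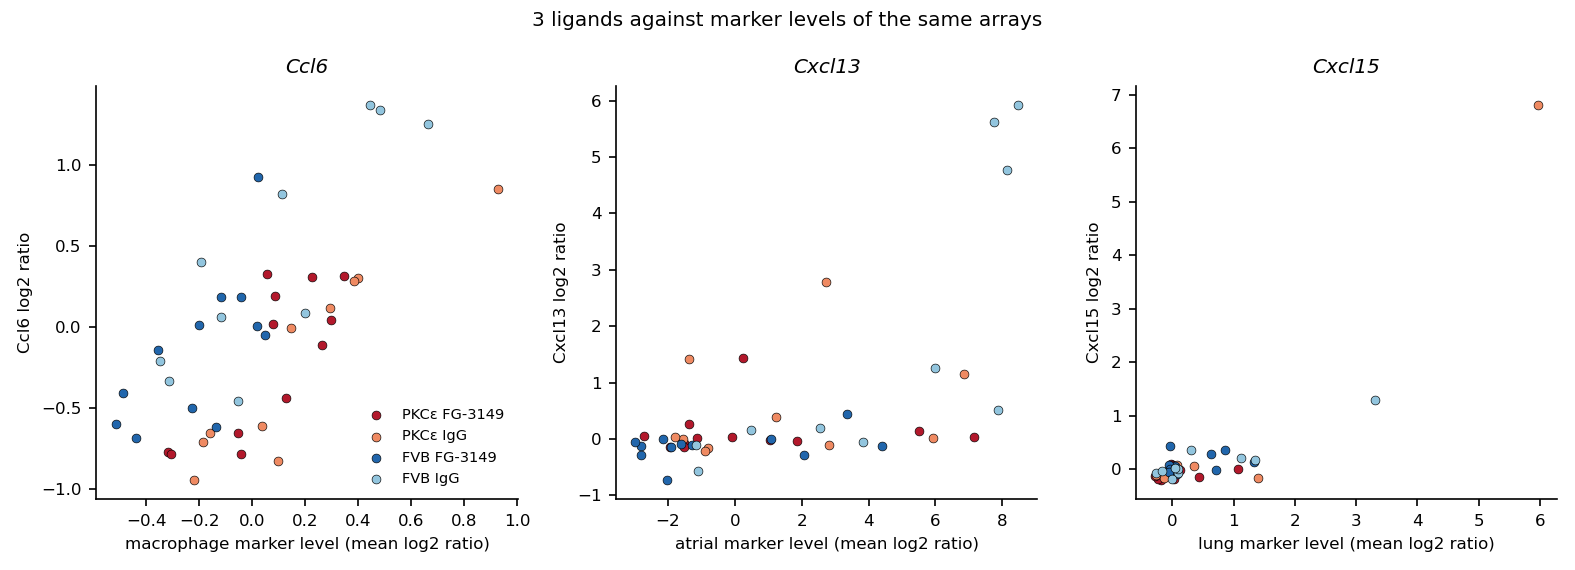
Log2 ratios of Ccl6, Cxcl13 and Cxcl15 on the vertical axes against the mean log2 ratio of the macrophage, atrial and lung markers on the horizontal axes, 1 point per array, coloured by group. Ccl6 follows the macrophage level over most arrays, while the high Cxcl13 and Cxcl15 values sit on a few arrays with high atrial or lung levels.

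The question of the first comparison is how the transgene changed chemokine expression in mice that received IgG. PKCε ventricles had less of the neutrophil attractants Cxcl1 and Cxcl2, of the eosinophil attractant Ccl11 and of several other CC ligands, and more of the receptors Cx3cr1, Cxcr6, Ccr1 and Cxcr4 and of the ligands Cxcl16 and Cx3cl1. The rises of Cx3cr1 and Cx3cl1 were not shared by the other probe sets of these genes. In all, 22 of the 51 members differed between PKCε and FVB mice under IgG at an adjusted p under 0.05 (43.1%, against 42.2% of all genes), a share near the background. Of these, 7 were higher, where 20.7% of all genes were higher, and 15 were lower, where 21.5% of all genes were lower. By kind, 2 of 32 ligands rose and 11 fell, with a median change of -0.13, and 5 of 19 receptors rose and 4 fell, with a median of -0.03. The median change was -0.09 over the members and -0.05 over all genes. Because each array measured a whole piece of ventricle, fewer cells of a type and less RNA per cell cannot be told apart.

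Of the 4 CXCR2 ligands, 2 fell and 0 rose in PKCε mice under IgG. Cxcl1 values lay between -2.03 and -0.05 (median -0.75) on the PKCε IgG arrays and between -1.33 and 1.23 (median 0.27) on the FVB IgG arrays. All 10 PKCε IgG arrays were below the FVB IgG median and 3 were below every FVB IgG array, so the groups overlapped. The difference was -0.98 ± 0.26 (SE), or 1.97-fold lower, with an adjusted p of 0.00235. Cxcl2, the neighbouring gene and another neutrophil attractant, ranged from -1.22 to 0.14 (median -0.53) in PKCε IgG mice and from -0.56 to 1.41 (median 0.63) in FVB IgG mice. Here too all 10 PKCε IgG arrays lay below the FVB IgG median, and the fold was 2.13 lower (adjusted p = 0.000507). Their receptor Cxcr2 differed by only -0.11 (adjusted p = 0.0313). The other ligands of this class, Cxcl5 and Cxcl15, had values of -0.15 and 0.53 that did not pass the test (adjusted p = 0.139 and 0.351).

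Several CC ligands that attract monocytes, eosinophils and T cells fell in PKCε mice under IgG, namely Ccl11, Ccl3, Ccl4, Ccl6 and Ccl9. The largest change of the members called was that of Ccl11, eotaxin, which attracts eosinophils through Ccr3. It ranged from -2.41 to 0.36 (median -0.79) on PKCε IgG arrays and from -0.24 to 0.94 (median 0.26) on FVB IgG arrays. Of the PKCε IgG arrays, 8 lay below every FVB IgG array, and the fold was 2.44 lower (log2 -1.29 ± 0.23 SE, adjusted p = 1.28e-05). Ccl3, which recruits monocytes through Ccr1, ranged from -0.77 to 0.04 (median -0.20) in PKCε IgG mice and from -0.08 to 0.75 (median 0.11) in FVB IgG mice. For Ccl3, 7 PKCε IgG arrays lay below every FVB IgG array (difference -0.51, adjusted p = 0.00169). Its neighbour Ccl4, another inflammatory CC ligand, was lower by a log2 value of -0.35 (adjusted p = 0.00298). Ccl9 and Ccl6, Ccr1 ligands found in rodents, were both lower by -0.50 (adjusted p = 0.00739 and 0.0203). The second probe set gave -0.14 for Ccl9, which was not called (adjusted p = 0.517), and -0.53 for Ccl6 (adjusted p = 0.0124). Ccl5 and Ccl24, also inflammatory CC ligands, did not pass the test, with values of 0.37 and -0.26 (adjusted p = 0.279 and 0.141).

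The remaining ligands that fell were spread over the other classes. Ccl7, a monocyte attractant that binds Ccr2, was the only 1 of 4 CCR2 ligands called, at -0.57 ± 0.20 (SE, adjusted p = 0.0208). It ranged from -1.36 to 0.50 in PKCε IgG mice and from -0.33 to 0.86 in FVB IgG mice, and its adjusted p was 0.0554 without PKCε IgG replicate 9 and 0.0611 without replicate 10. Ccl2, the best known ligand of Ccr2, had a value of -0.36 (adjusted p = 0.129), and Ccr2 itself 0.07 (adjusted p = 0.73). Cxcl11, a ligand of Cxcr3 on T cells, fell by 0.24 (adjusted p = 0.0203; -0.04 with its second probe set, adjusted p = 0.704), Ccl20, the ligand of Ccr6, fell by 0.25 (adjusted p = 0.0033), and Cxcl17, a chemokine of mucosal surfaces, fell by 0.36 (adjusted p = 0.0274). Pf4, the platelet factor, was the single member of its class and did not pass the test (-0.03, adjusted p = 0.907).

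A ligand and its own receptor were both higher in PKCε mice under IgG for Cxcl16 with Cxcr6. This also held for Cx3cl1 with Cx3cr1 on the probe sets used, but not on their other probe sets. Cxcl16, a membrane-bound chemokine, ranged from -0.09 to 0.90 (median 0.18) on PKCε IgG arrays and from -0.75 to 0.36 (median -0.45) on FVB IgG arrays. Each of the 10 exceeded the FVB IgG median, and the fold was 1.59 higher (adjusted p = 3.13e-05). Cxcr6, its receptor on T and NK cells, was 1.61-fold higher, with values of -0.22 to 2.17 in PKCε IgG mice and -0.62 to 0.21 in FVB IgG mice (adjusted p = 0.00299). The highest of these was PKCε IgG replicate 9, and without the lung-high arrays the difference of Cxcr6 was 0.53 (adjusted p = 0.00702). A different probe set of each gene gave a smaller difference, 0.31 for Cxcl16 (adjusted p = 0.0123) and 0.46 for Cxcr6 (adjusted p = 0.0209).

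Cx3cr1, the fractalkine receptor of resident macrophages and monocytes, ranged from 0.07 to 1.04 (median 0.51) in PKCε IgG mice and from -0.76 to 0.52 (median -0.29) in FVB IgG mice. All 10 PKCε IgG arrays were above the FVB IgG median and 5 were above every FVB IgG array (fold 1.61, adjusted p = 0.000418). Its ligand Cx3cl1, fractalkine, was 1.46-fold higher in PKCε IgG mice (log2 0.54 ± 0.135 SE, adjusted p = 0.00114), with 9 of 10 arrays above the FVB IgG median. Neither change was shared by the genes' other probe sets. The second probe set of Cx3cr1 differed by 0.02 (adjusted p = 0.875), that of Cx3cl1 by -0.25 (adjusted p = 0.0419), and another of Cx3cl1 by -0.10 (p = 0.0845, unadjusted). The probe sets used here are those with the largest SD over the arrays.

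**Figure D2:**
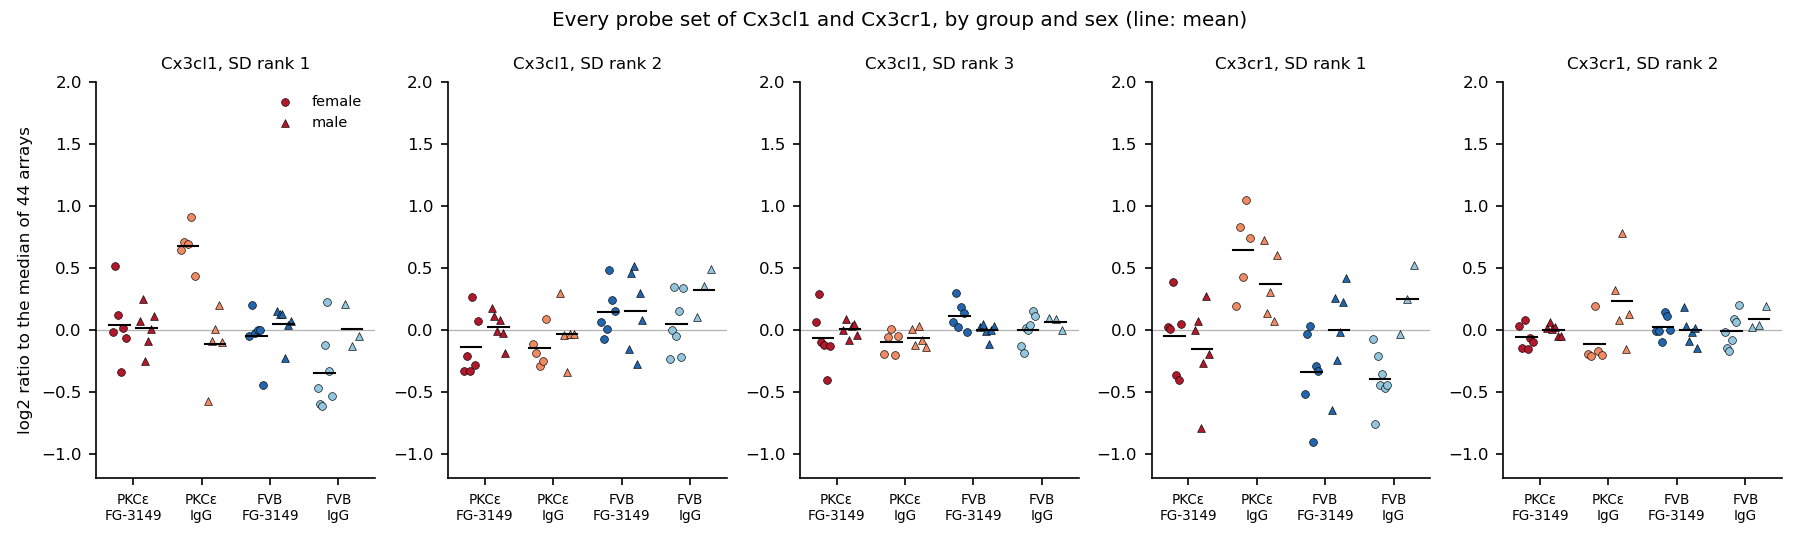
Log2 ratios of the 3 probe sets of Cx3cl1 and the 2 of Cx3cr1 on each array, by group from PKCε FG-3149 on the left to FVB IgG on the right, with females as circles and males as triangles. The first probe set of each gene is high in PKCε IgG mice, for Cx3cl1 in the females, and the other probe sets show no such rise.

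The other receptors that rose were Ccr1, Cxcr4 and Ackr4. Ccr1, a receptor of monocytes and neutrophils for Ccl3, Ccl5, Ccl6, Ccl7 and Ccl9, ranged from -0.25 to 1.60 (median 0.17) in PKCε IgG mice and from -0.58 to 0.69 (median -0.20) in FVB IgG mice. The fold was 1.56 (adjusted p = 0.00889), and the second probe set gave 0.18 (adjusted p = 0.17). Of its ligands named here, Ccl3, Ccl6, Ccl7 and Ccl9 were lower. Cxcr4, the receptor of Cxcl12 that holds stem cells and leukocytes in place, was 1.39-fold higher (0.47 ± 0.13 SE, adjusted p = 0.00373), with 6 of 10 PKCε IgG arrays above every FVB IgG array. Cxcl12 differed by -0.12 (adjusted p = 0.412). Ackr4, a scavenger of Ccl19, Ccl21 and Ccl25, was higher by 0.30 (adjusted p = 0.036).

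Ackr3, an atypical receptor that takes up Cxcl12 and Cxcl11, separated the groups with no overlap although its change was small. It ranged from -0.57 to -0.21 (median -0.29) in PKCε IgG mice and from -0.17 to 0.48 (median 0.00) in FVB IgG mice. Every PKCε IgG array lay below every FVB IgG array. A lack of overlap in either direction was found for 1 of the 51 members, Ackr3, and for 543 of all 12394 genes (4.38%). Such a separation was therefore not particular to the members. The difference was -0.37 ± 0.07 (SE), 1.29-fold lower (adjusted p = 4.24e-05). Cxcr5 and Ccr3, receptors of B cells and eosinophils, were lower by less, at -0.15 and -0.09 (adjusted p = 0.022 and 0.0262).

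**Figure D3:**
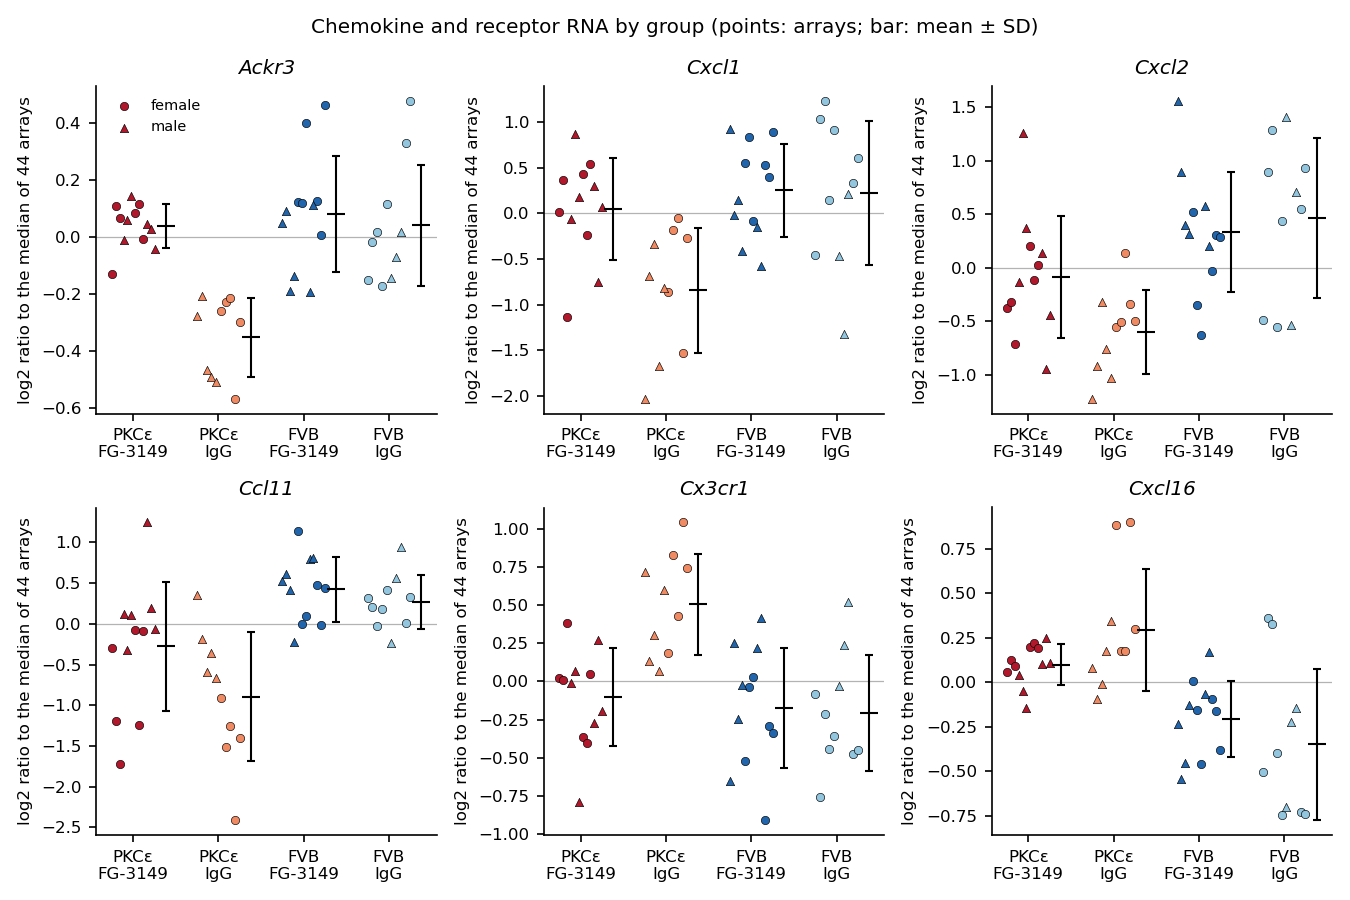
Log2 ratios of Ackr3, Cxcl1, Cxcl2, Ccl11, Cx3cr1 and Cxcl16 on each array, by group from PKCε FG-3149 on the left to FVB IgG on the right. Circles are females, triangles are males, and bars give the mean and SD of a group. The PKCε IgG arrays are the lowest group for Ackr3, Cxcl1, Cxcl2 and Ccl11 and the highest for Cx3cr1 and Cxcl16.

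Markers of several cell types were called in the same comparison, where 20.7% of all genes were higher and 21.5% lower. The count of higher macrophage markers and that of lower neutrophil markers lay near these shares. Of 9 fibroblast markers, 8 were higher in PKCε mice under IgG, and their mean level lay between 0.18 and 1.15 in PKCε IgG mice and between -0.81 and 0.35 in FVB IgG mice. With that level as a covariate, an alternative added after the data were seen, 4 members were called (14% of all genes), and the differences of Cxcl1, Cxcl2, Ccl11 and Ackr3 were -0.24, -0.61, -0.76 and -0.10 (adjusted p = 0.792, 0.39, 0.191 and 0.637). In the same fit the differences of Ccl6 and Ccl9 were larger, at -1.42 and -1.21 (adjusted p = 6.15e-05 and 0.000139). The fibroblast level itself differed between the lines, so this fit cannot tell the level apart from line. Of 7 measured adipocyte markers, 6 were lower, at -0.88 to 0.66 in PKCε IgG mice and -0.65 to 2.92 in FVB IgG mice. With the adipocyte level as a covariate, also added after the data were seen, 14 members were called (34.6% of all genes), and Ccl6 and Ccl9 were at -0.06 and -0.36 (adjusted p = 0.845 and 0.147). Of 12 neutrophil markers, 2 were lower and 0 were higher, and their level was -0.19 to 1.13 in PKCε IgG mice and -0.08 to 0.55 in FVB IgG mice. The macrophage markers gave 4 of 18 higher, with levels of -0.22 to 0.93 in PKCε IgG mice and -0.35 to 0.66 in FVB IgG mice. With the macrophage level as a covariate 20 members were called (38.8% of all genes). The part of neutrophils in the chemokine differences was not tested. The difference between 3′ and 5′ probe sets of Gapdh, a sign of RNA length, averaged 0.30 ± 0.25 in PKCε IgG mice and -0.035 ± 0.078 in FVB IgG mice (SD, n = 10 each), and with it as a covariate 13 members were called (31.3% of all genes). In females alone 16 members were called (36.8% of all genes) and in males alone, with 3 FVB IgG mice, 5 (17.5% of all genes), with values in males of -0.59 for Cxcl1 and 0.12 for Cx3cr1 (adjusted p = 0.396 and 0.804).

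Leaving out the arrays that stood apart ended some of these calls under IgG. Without the atrial-high arrays 16 members were called (37.4% of all genes). Ccl6 was then at -0.20, Ccl9 at -0.36 and Ccl7 at -0.64 (adjusted p = 0.442, 0.151 and 0.0606), Cx3cl1 at 0.325, Cxcr4 at 0.34, Ccr1 at 0.49 and Ackr4 at 0.22 (adjusted p = 0.113, 0.0996, 0.106 and 0.206), and Cxcl11 at -0.24 and Cxcr5 at -0.11 (adjusted p = 0.0671 and 0.158). Without the lung-high arrays, which were PKCε IgG replicates 9 and 10, 17 were called (34.3% of all genes). FVB IgG replicate 4, with a mean of the lung markers of 3.30, did not meet that rule and was kept. In that fit Ccr1 was at 0.42, Ackr4 at 0.16 and Ccl7 at -0.35 (adjusted p = 0.0953, 0.267 and 0.173), and Cxcl17 at -0.33, Cxcr2 at -0.11, Cxcr5 at -0.13 and Ccr3 at -0.08 (adjusted p = 0.0723, 0.0789, 0.0643 and 0.0696). Cxcl1, Cxcl2, Ccl11, Ackr3, Cx3cr1, Cxcl16 and Cxcr6 kept their calls both times.

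Genes around the chemokine system were called in both directions in PKCε mice under IgG, where 20.7% of all genes were higher and 21.5% lower. Of 32 measured genes that carry signals below the receptors, 13 rose and 2 fell, among them Grk5 (0.72), a kinase that desensitises receptors, Arrb1 (0.78), an arrestin, and Rgs2 (-1.13), an inhibitor of G protein signalling, with adjusted p = 9.6e-09, 6.8e-07 and 6.39e-06. Of 30 measured genes of NF-κB and cytokine signalling, 13 rose and 5 fell. That list also names inhibitors such as Nfkbia and Tnfaip3, so its counts give no direction of chemokine induction. Among those that rose were Tlr4, the endotoxin receptor, at 0.76 (adjusted p = 8.1e-08) and the adaptor Myd88 at 0.42 (adjusted p = 3.62e-08). Among 17 interferon genes 4 rose and 1 fell. The myeloid factor Irf8 was higher by 1.05 (adjusted p = 1.88e-07) and the interferon-γ receptor chain Ifngr2 was at -0.66 (adjusted p = 3.44e-08). Among 22 adhesion genes 5 rose and 2 fell, with Icam1, the leukocyte ligand on endothelium, at 0.77 (adjusted p = 1.16e-06) and the proteoglycan Sdc3 at 0.79 (adjusted p = 8.55e-09).

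The second comparison asks what FG-3149 changed in PKCε mice. Cxcl1 and the scavenger Ackr3 were higher in antibody-treated PKCε mice and Cx3cr1 was lower on the probe set used. These 3 of 51 members were called (5.88%, against 8.82% of all genes), 2 of them higher (5.08% of all genes) and 1 lower (3.74%), and 9 members had an unadjusted p under 0.05. This comparison and that of the lines under IgG share the PKCε IgG arrays, so their values are only set side by side: 0.39 and -0.37 for Ackr3, 0.90 and -0.98 for Cxcl1, and -0.61 and 0.68 for Cx3cr1.

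Ackr3 ranged from -0.13 to 0.14 (median 0.05) in PKCε FG-3149 mice and from -0.57 to -0.21 (median -0.29) in PKCε IgG mice. Every FG-3149 array lay above every IgG array, and 0.113% of all genes had no overlap between these groups. The difference was 0.39 ± 0.07 (SE), 1.31-fold higher (adjusted p = 0.000191), and it kept its call when any single array was left out, with values of 0.36 to 0.41. In FVB mice Ackr3 averaged 0.08 ± 0.20 under FG-3149 (SD, n = 12) and 0.04 ± 0.21 under IgG (SD, n = 10).

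Cxcl1 ranged from -1.14 to 0.87 (median 0.12) in PKCε FG-3149 mice, against -2.03 to -0.05 (median -0.75) in PKCε IgG mice. Of the 12 FG-3149 arrays, 8 lay above every IgG array and 10 above the IgG median. The difference was 0.90 ± 0.25 (SE), 1.86-fold higher (adjusted p = 0.0165). It was 0.82 without the lung-high arrays (adjusted p = 0.0677), 0.85 without the atrial-high arrays (adjusted p = 0.084), and 0.89 with the Gapdh difference as a covariate (adjusted p = 0.067), which averaged 0.037 ± 0.105 in PKCε FG-3149 mice (SD, n = 12) and 0.30 ± 0.25 in PKCε IgG mice (SD, n = 10). Cxcl2 lay at -0.94 to 1.26 (median -0.12) in PKCε FG-3149 mice and at -1.22 to 0.14 (median -0.53) in PKCε IgG mice, and its difference of 0.51 did not pass the test (adjusted p = 0.193).

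Cx3cr1 fell to a median of -0.00 in PKCε FG-3149 mice, with values of -0.79 to 0.38, against a median of 0.51 and values of 0.07 to 1.04 in PKCε IgG mice. All 12 FG-3149 arrays lay below the IgG median and 9 below every IgG array. The fold was 1.52 lower (-0.61 ± 0.15 SE, adjusted p = 0.00663). Its second probe set gave -0.09 (adjusted p = 0.549), and without the lung-high arrays the difference was -0.49 (adjusted p = 0.062). Of 18 macrophage markers 0 were called in this comparison, while 3 of 9 fibroblast markers were lower under FG-3149 (3.74% of all genes were lower). The fibroblast levels were -0.02 to 0.78 in PKCε FG-3149 mice and 0.18 to 1.15 in PKCε IgG mice.

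Other members had larger differences that missed the threshold. Ccl11 differed by 0.62 (adjusted p = 0.0663), with values of -1.72 to 1.24 in PKCε FG-3149 mice and -2.41 to 0.36 in PKCε IgG mice. Cxcl9, an interferon-induced ligand of Cxcr3, differed by 0.63 (adjusted p = 0.147) and Cxcl11 by 0.21 (adjusted p = 0.0978). Around the receptors, Il6, a cytokine that acts with chemokines in inflammation, was lower under FG-3149 by a log2 value of -1.09 (adjusted p = 0.0105), Icam1 by -0.35 (adjusted p = 0.0417) and Arrb1 by -0.42 (adjusted p = 0.0137). Ifngr2 was higher by 0.44 (adjusted p = 0.000425) and the kinase Jak2 by 0.31 (adjusted p = 0.00771). Of the 32 signalling genes 1 was higher and 2 lower, and of the 30 NF-κB genes 1 was higher and 3 lower. Of the 17 interferon genes 2 were higher and 1 lower, and of the 22 adhesion genes 0 were higher and 1 lower. Over all genes 5.08% were higher and 3.74% lower.

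**Figure D4:**
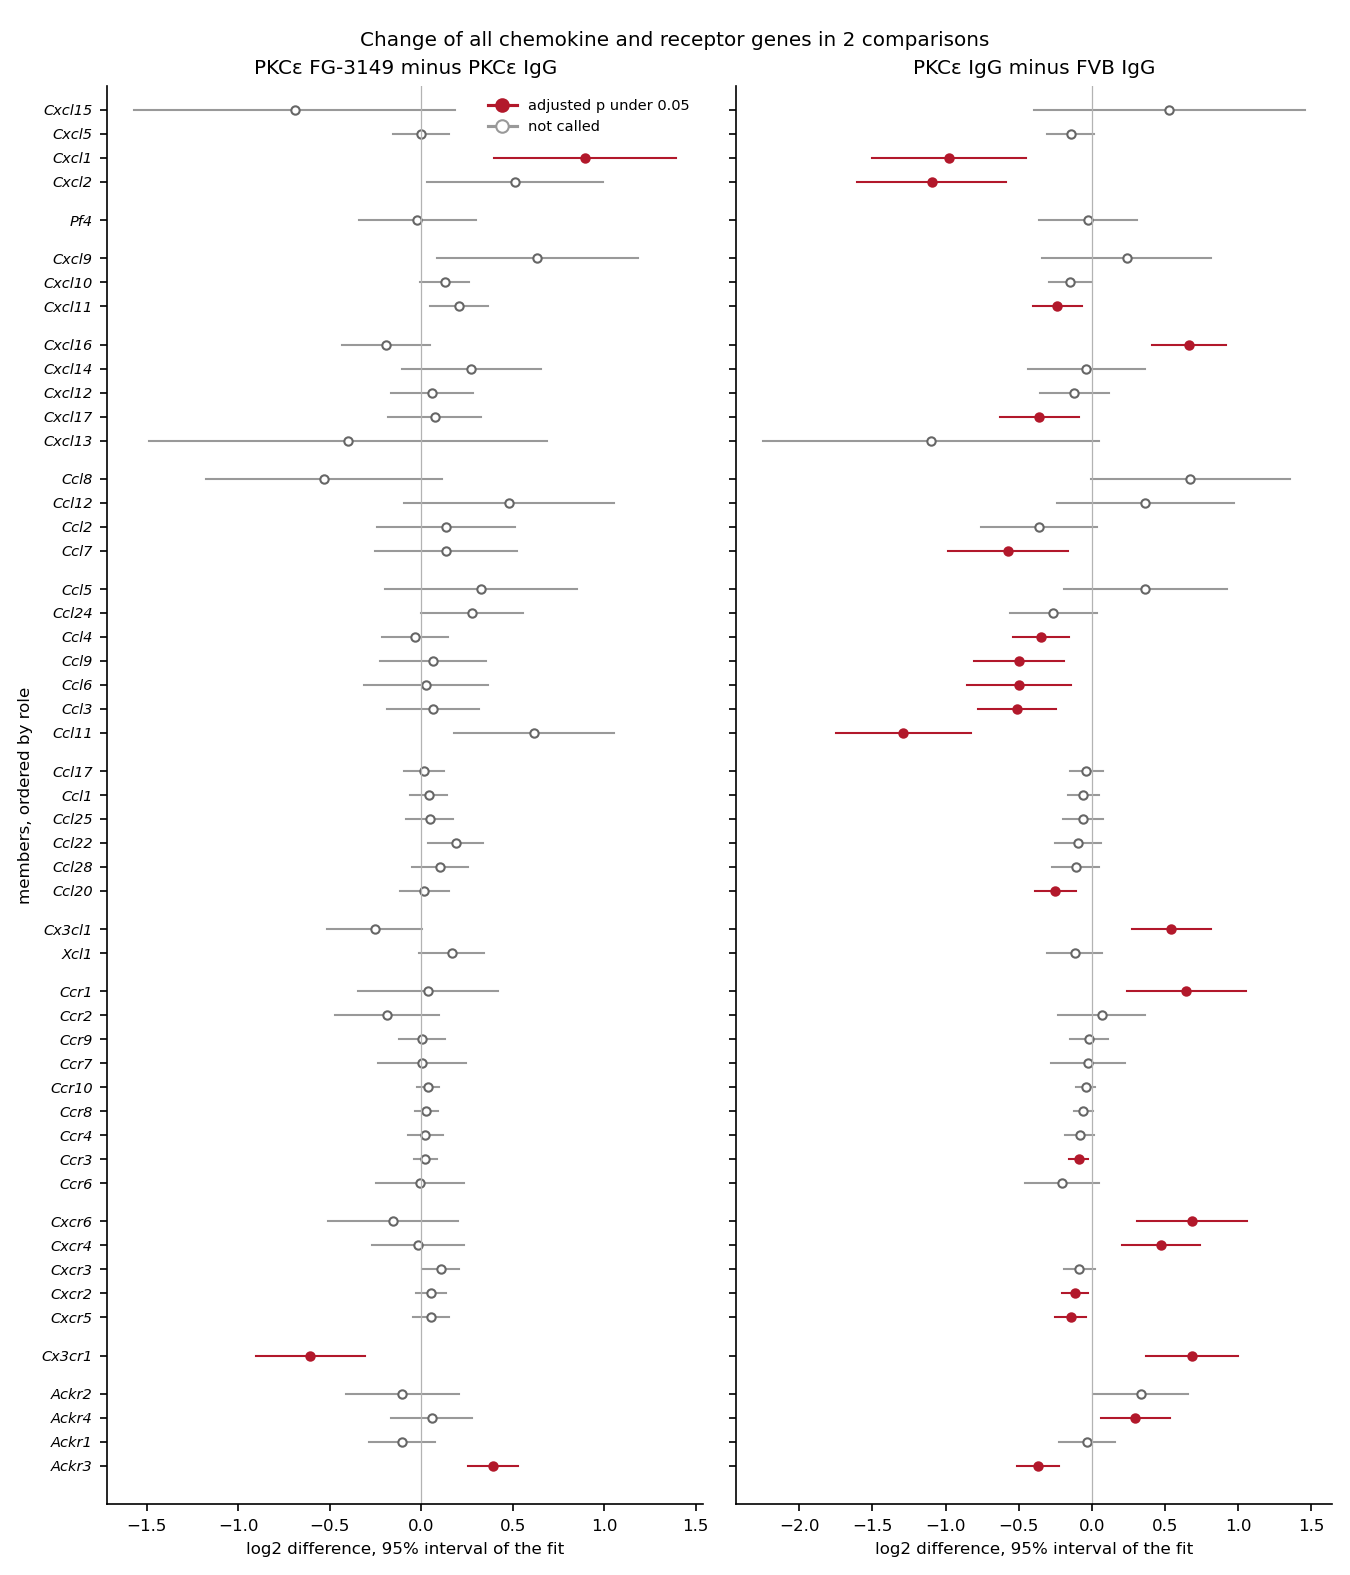
Log2 differences with 95% intervals for the 51 members, ordered by role, for PKCε FG-3149 minus PKCε IgG on the left and PKCε IgG minus FVB IgG on the right, with filled red points at an adjusted p under 0.05. The left panel has 3 such members and the right panel 22.

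With both lines under FG-3149, the third comparison, PKCε mice had more Ccl5, Ccl24, Ccr1 and Cxcr4 and less Ccl11, Ccl7, Ccl2 and Ccl9 than FVB mice. In all 19 members were called (37.3%, against 47% of all genes), 7 higher, where 21.5% of all genes were higher, and 12 lower, where 25.5% were lower. Ccl5, a T cell attractant called only under FG-3149, averaged 0.30 ± 0.32 in PKCε FG-3149 mice and -0.40 ± 0.59 in FVB FG-3149 mice (SD, n = 12 each), a difference of 0.70 ± 0.25 (SE, adjusted p = 0.0196). Ccl2 averaged -0.10 ± 0.32 in PKCε FG-3149 mice and 0.45 ± 0.55 in FVB FG-3149 mice (difference -0.55, adjusted p = 0.0114), and its neighbour Ccl7 differed by -0.66 ± 0.18 (adjusted p = 0.00321). The interaction of line and antibody was not called for these genes, at 0.34 for Ccl5, -0.18 for Ccl2 and -0.09 for Ccl7 (adjusted p = 0.75, 0.823 and 0.926). With the Gapdh difference as a covariate 13 members were called (41.4% of all genes). In that fit Ccl5 was at 0.59, Ccl2 at -0.39 and Ccl9 at -0.34 (adjusted p = 0.0676, 0.0729 and 0.0508). Ccl24, Ccr1, Cxcr4, Ccl11 and Ccl7 kept their calls.

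This comparison shares no group with the one under IgG, so their calls can be set side by side. Both came from the same fit, with a common estimate of spread and a common sex term, so the calls are not independent. Called in both in the same direction were 14 members, 5 higher and 9 lower, which is 63.6% of the 22 and 73.7% of the 19, and 0 were called in opposite directions. Over all genes the shared calls were 66.1% of those under IgG and 59.4% of those under FG-3149. The members higher in both were Ccr1 (0.66 under FG-3149, adjusted p = 0.00319), Cxcr4 (0.44, adjusted p = 0.00274), Cxcr6 (0.41, adjusted p = 0.0437), Ackr4 (0.33, adjusted p = 0.00907) and Cxcl16 (0.31, adjusted p = 0.0244). Where these genes had a second probe set, it gave 0.19 for Ccr1, 0.16 for Cxcr6 and 0.02 for Cxcl16 under FG-3149, none of them called (adjusted p = 0.102, 0.352 and 0.85). Lower in both were Ccl11 (-0.70, adjusted p = 0.00573), Ccl7, Ccl9 (-0.44, adjusted p = 0.00865, and -0.17 with its second probe set, adjusted p = 0.346), Ccl3 (-0.42, adjusted p = 0.00441), Ccl4, Ccl20, Cxcl17, Cxcr2 and Ccr3. Cxcl12, a chemokine that retains cells through Cxcr4, and Ccr4, a T cell receptor, were called only under FG-3149, at -0.25 and -0.11 (adjusted p = 0.0473 and 0.0481), and the second probe set of Cxcl12 gave 0.15 (adjusted p = 0.146). Without the atrial-high arrays Ccr3 was at -0.08 and Ccr4 at -0.07 (adjusted p = 0.0631 and 0.0845), and without the lung-high arrays Cxcl12 was at -0.25 and Ccr4 at -0.11 (adjusted p = 0.0507 and 0.0529).

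Cell type markers also differed between the lines under FG-3149, where 21.5% of all genes were higher and 25.5% lower. Macrophage markers were higher for 9 of 18 genes in this comparison, with levels of -0.32 to 0.35 in PKCε FG-3149 mice and -0.52 to 0.05 in FVB FG-3149 mice. With that level as a covariate 10 members were called (32.4% of all genes), and Ccl5 was at 0.36 (adjusted p = 0.237). Of the fibroblast markers, 9 of 9 were higher, with levels of -0.02 to 0.78 in PKCε FG-3149 mice and -1.0025 to -0.41 in FVB FG-3149 mice. With the fibroblast level as a covariate 4 members were called (9.71% of all genes), and Ccl5 was at 0.02 (adjusted p = 0.987). The fibroblast levels of these groups did not overlap, so that fit cannot tell the level apart from line. Of 12 neutrophil markers 4 were lower, and so were 3 of 3 measured erythroid markers, and the part of these cells was not tested.

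In FVB mice, 2 of the 51 members were lower under FG-3149 (3.92%, against 9% of all genes in both directions and 4.57% lower) and 0 were higher (4.43% of all genes), with 5 at an unadjusted p under 0.05. Ccl24, eotaxin-2, which attracts eosinophils and is made by alternatively activated macrophages, ranged from -0.93 to 0.07 (median -0.24) in FVB FG-3149 mice and from -0.44 to 1.09 (median 0.24) in FVB IgG mice. All 12 FG-3149 arrays were below the IgG median, and the difference was -0.49 ± 0.14 (SE, adjusted p = 0.0228). Cxcl13 ranged from -0.73 to 0.44 (median -0.11) in FVB FG-3149 mice and from -0.57 to 5.93 (median 0.35) in FVB IgG mice, a 3.38-fold difference (-1.76 ± 0.54 SE, adjusted p = 0.034) that rests on 3 IgG arrays. Without the atrial-high arrays, 0 members were called, and the differences were -0.19 for Ccl24 (adjusted p = 0.68) and -0.07 for Cxcl13 (adjusted p = 0.986). All 3 atrial markers were lower under FG-3149, with a median difference of -4.92 and levels of -2.97 to 4.40 in FVB FG-3149 mice and -1.16 to 8.47 in FVB IgG mice. Adipocyte markers were lower for 4 of 7 genes, at -0.84 to 1.09 in FVB FG-3149 mice and -0.65 to 2.92 in FVB IgG mice. Leaving out FVB IgG replicate 2 alone gave Ccl24 a value of -0.40 (adjusted p = 0.0649) and Cxcl13 one of -1.34 (adjusted p = 0.0957).

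Whether the antibody acted differently in the lines was tested as an interaction, the antibody difference in PKCε mice minus that in FVB mice. It was called for 2 members (3.92%, against 3.86% of all genes), both positive, where 2.09% of all genes were positive and 1.78% negative, and 7 had an unadjusted p under 0.05. For Ackr3 the interaction was 0.33 ± 0.10 (SE, adjusted p = 0.0406), and 23 of the 44 runs that left out 1 array lost the call, with adjusted p values of 0.0156 to 0.074. For Ccl24 it was 0.76 ± 0.20 (SE, adjusted p = 0.0186), with group means of 0.21 ± 0.42 in PKCε FG-3149 mice (SD, n = 12), -0.07 ± 0.17 in PKCε IgG mice (SD, n = 10), -0.29 ± 0.31 in FVB FG-3149 mice (SD, n = 12) and 0.25 ± 0.44 in FVB IgG mice (SD, n = 10). Without the atrial-high arrays it was 0.42 (adjusted p = 0.355), and that of Ackr3 was 0.39 (adjusted p = 0.0843), and 0.29 without the lung-high arrays (adjusted p = 0.105). The interactions of Cxcl1, Cx3cr1 and Cx3cl1 were 0.77, -0.61 and -0.52 and did not pass the test (adjusted p = 0.255, 0.0947 and 0.107).

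Females and males differed in 4 members (7.84%, against 15.8% of all genes), 2 higher in females (8.67% of all genes) and 2 lower (7.12%), with 18 at an unadjusted p under 0.05. The neighbouring macrophage ligands Ccl6 and Ccl9 were higher in females, while Ccl11 and Cxcl14, a constitutive chemokine of epithelium and other tissues, were lower in females. Ccl6 averaged 0.31 ± 0.33 in the 5 females and -0.75 ± 0.14 in the 5 males of the PKCε IgG group (SD). Their ranges of -0.01 to 0.85 and -0.95 to -0.61 did not overlap, and the share of all genes without such overlap was not computed. In the FVB FG-3149 group it averaged 0.07 ± 0.50 in females and -0.35 ± 0.34 in males (SD, n = 6 each), and those ranges overlapped. Over the groups the difference of Ccl6 was 0.77 ± 0.12 (SE, adjusted p = 2.04e-05) and that of Ccl9 0.65 ± 0.10 (SE, adjusted p = 3.04e-05). The second probe set of Ccl6 gave 0.63 and that of Ccl9 gave 0.66. Macrophage markers were higher in females for 9 of 18 genes, with levels of -0.52 to 0.93 (median 0.13) in the 24 females and -0.49 to 0.20 (median -0.10) in the 20 males. With that level as a covariate the differences were 0.45 for Ccl6 (adjusted p = 0.000632), 0.40 for Ccl9 (adjusted p = 0.00247) and -0.56 for Ccl11 (adjusted p = 0.0573). Adipocyte markers were higher in females for 3 of 7 genes, at -0.74 to 2.92 (median 0.41) in females and -0.88 to 0.72 (median -0.55) in males. With the adipocyte level as a covariate Ccl6 was at 0.40 (adjusted p = 0.171) and Ccl9 at 0.53 (adjusted p = 0.041), while Ccl11 was at -1.03 and Cxcl14 at -0.92 (adjusted p = 0.00292 and 0.00179). Fibroblast markers were higher in females for 4 of 9 genes, at -1.002 to 1.15 in females and -0.85 to 0.69 in males. With that level as a covariate Ccl6, Ccl9, Ccl11 and Cxcl14 were at 0.50, 0.44, -0.49 and -0.54 (adjusted p = 0.00524, 0.00709, 0.122 and 0.0427).

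Ccl11 averaged -1.50 ± 0.56 in the females and -0.29 ± 0.41 in the males of the PKCε IgG group (SD, n = 5 each), and 0.20 ± 0.17 in the 7 females and 0.42 ± 0.60 in the 3 males of the FVB IgG group. Over the groups the difference was -0.64 ± 0.16 (SE, adjusted p = 0.00357). Cxcl14 averaged -0.41 ± 0.38 in the females and 0.84 ± 0.22 in the males of the PKCε FG-3149 group (SD, n = 6 each), where the sexes lay farthest apart. Their ranges of -1.01 to 0.08 and 0.62 to 1.17 did not overlap, and the share of all genes without such overlap was not computed. In the FVB FG-3149 group Cxcl14 was at 0.26 ± 0.45 in females and 0.02 ± 0.20 in males (SD, n = 6 each). The difference over the groups was -0.57 ± 0.14 (SE, adjusted p = 0.00297). Without FVB FG-3149 replicate 11, the array labelled female with a high Uty value, 5 members were called, and the differences were 0.78 for Ccl6, 0.66 for Ccl9, -0.64 for Ccl11 and -0.60 for Cxcl14.

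**Figure D5:**
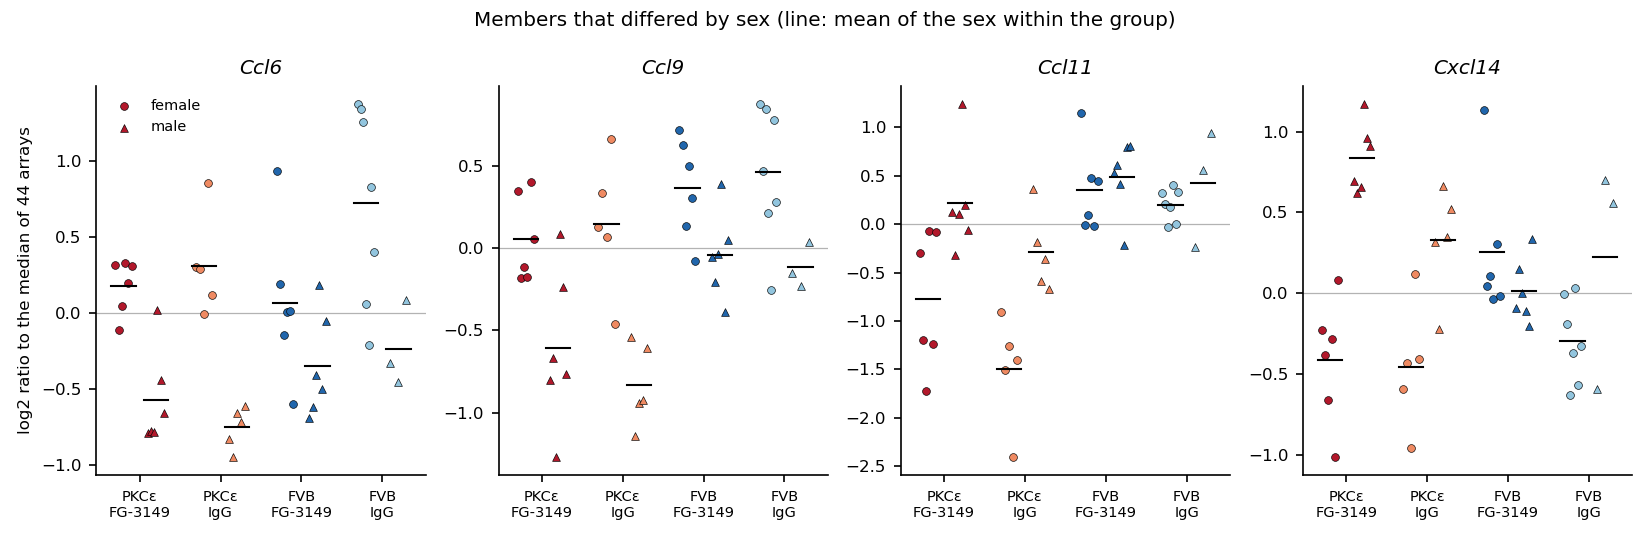
Log2 ratios of Ccl6, Ccl9, Ccl11 and Cxcl14 on each array, with females beside males within each group, from PKCε FG-3149 on the left to FVB IgG on the right. Ccl6 and Ccl9 are higher in females of all 4 groups on average, and the sexes are farthest apart for Ccl11 in PKCε IgG mice and for Cxcl14 in PKCε FG-3149 mice.

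The difference between the lines under IgG was larger in females for Cx3cl1, the only member called for this interaction (1.96%, against 0.0807% of all genes, which is 10 genes). The PKCε IgG females and males came from separate runs of mouse numbers, so sex cannot be told apart from what goes with those numbers. Its values were 0.43 to 0.91 in the 5 PKCε IgG females, against -0.62 to 0.22 in the 7 FVB IgG females. In males they were -0.57 to 0.19 in the 5 PKCε IgG mice and -0.14 to 0.20 in the 3 FVB IgG mice. The groups of females did not overlap and those of males did, and the share of all genes with this pattern was not computed. The interaction, the difference in females minus that in males, was 1.15 ± 0.21 (SE, adjusted p = 0.00581), and it was 1.05 without FVB IgG replicate 6 (adjusted p = 0.0556). The other probe sets of the gene gave 0.15 and 0.03. No member was called by limma for the interaction of sex with the antibody in PKCε mice (0%, against 0.0161% of all genes), where 2 members had an unadjusted p under 0.05 and Cx3cl1 had a value of -0.77 (adjusted p = 0.233).

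Many of these genes are carried by leukocytes, and the members were set against the mean log2 ratio of 18 macrophage markers over the 44 arrays, after the means of group and sex were removed from both. Of the 51 relations, 13 were positive and 6 negative at an adjusted p under 0.05 in a two-sided permutation test. The share over all genes was not computed, so whether these counts are particular to the members is not known. Ccl6 had the highest Pearson r, 0.802, with a Spearman rho of 0.735 and an adjusted permutation p of 0.000102. The smallest unadjusted p that 100000 permutations can give is 1e-05. Without PKCε IgG replicate 9 and FVB IgG replicate 5, the arrays farthest from the median, its r was 0.754. Cxcl16 followed with an r of 0.742 (rho 0.678, 0.685 without those arrays, adjusted permutation p = 0.000102), and Ccl9 with an r of 0.718 (rho 0.683, 0.635 without them, adjusted permutation p = 0.000102). Of the receptors, Ccr2 had an r of 0.682, Cx3cr1 of 0.45 and Ccr1 of 0.406 (adjusted permutation p = 0.000102, 0.00973 and 0.0193). The r of Ccr7 was 0.444 with a rho of only 0.169, and it was 0.29 without the farthest arrays. Ackr3 went the other way, with an r of -0.422 (rho -0.304, -0.361 without those arrays, adjusted permutation p = 0.0148). Cxcl1 had an r of -0.274 that did not pass the test (rho -0.285, adjusted permutation p = 0.151).

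The remaining 22 members were called in none of the 8 comparisons. Under IgG, their differences between PKCε and FVB mice ran from -0.20 for Ccr6, the receptor of Ccl20, to 0.67 for Ccl8, both chosen for that place in the order after their values were seen. Among them were the T cell receptors Cxcr3, Ccr6 and Ccr8, the lymphoid ligands Ccl17, Ccl22 and Ccl25, and the scavengers Ackr1 and Ackr2, of which Ackr2 had the lowest adjusted p in that comparison after Cxcl10 (0.33, adjusted p = 0.0896, and -0.15, adjusted p = 0.0794).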

How the data were processed

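Left ventricular RNA of 44 mice was hybridised, 250 ng a mouse, to Affymetrix 430A 2.0 arrays, 1 array per mouse. The deposited values are linear ratios. Per the series' design text in the labels, the authors summarised the arrays by GCRMA and then rescaled each probe set to its median over the samples in GeneSpring GX 7.3.1, so the ratio of every probe set has a median of 1. Brightness and detection calls were not used here. Precision is limited by how many arrays there are. The array medians lay between 0.954 and 1.03.

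From these ratios, log2 values were computed with no further normalization. Of 22690 probe sets, 20393 carry 1 gene symbol in the platform annotation, 691 several and 1606 none; 1 probe set per gene was kept, that with the largest SD over all arrays, which left 12394 genes. The 4 probe sets shared by several genes that include a chemokine were left unnamed, and 2 near symbols (Ccl27a and Ccr1l1) did not meet the naming rule. Of the 51 members, 36 had 1 probe set and 15 had several.

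Groups were compared with the lmFit and eBayes functions of limma 3.58.1 (R 4.3.3), in a fit of 4 group means and a sex term over all 44 arrays, or of 8 means of group and sex for the interactions with sex. All p-values are two-sided, adjusted by the Benjamini-Hochberg method over the 12394 genes of a comparison, and a gene was called at an adjusted p under 0.05. SE and 95% intervals are those of the fit. The procedure was tested on simulated data. Relations with the macrophage level used residuals of that fit and 100000 permutations. Marker levels are means of the log2 ratios of a list, and arrays over 4 in the atrial level, or over 3 in both Sftpc and Scgb1a1, were left out in named alternatives. No scan dates or batches were used.

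The text names Cxcl1, every member called in a comparison, Pf4 as the best of a class without calls, and up to 4 called genes of each other list. Members outside this rule are named after their values were seen. The members and lists were chosen with earlier results of these data known. Replicate numbers did not pair the mice: over 62 same-numbered pairs the correlation of their deviations ran from -0.303 to 0.297 (median -0.002).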

Additional observations from a re-analysis of the deposited data

Results flagged for a closer look

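The response to FG-3149 differed between the lines for 2 members by the interaction test. For Ackr3 the interaction was 0.33 (adjusted p = 0.0406), with a difference of 0.39 in PKCε mice and 0.06 in FVB mice. For Ccl24 it was 0.76 (adjusted p = 0.0186), with a difference of 0.28 in PKCε mice and -0.49 in FVB mice. Without the atrial-high arrays the interaction of Ccl24 was 0.42 (adjusted p = 0.355). The difference of Cx3cl1 between the lines under IgG was not the same in the sexes, with an interaction of 1.15 (adjusted p = 0.00581). It was 1.03 in a fit of the females alone and -0.12 in one of the males alone. With the other probe sets of Cx3cl1 the interaction was 0.15 and 0.03.

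Among 60 sets of 10 arrays tested for a value far from the other 9, 3 had one, and chance gives about 1 in 20. On FVB IgG replicate 10, Ccr3 was at 0.22 and the next array at 0.09. On FVB IgG replicate 2, Cxcl12 was at -1.26 with the next array at -0.49, and Cxcr5 was at 0.44 with the next at 0.17. That array was also the highest of its group in atrial markers (8.47).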

How the results depend on the processing

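Of 53 called changes of single members, all were kept with a pseudocount of 0.1 and with robust eBayes, and 47 of 47 without the genes of lowest SD. The count for the transgene under IgG was 22 and became 13 with the Gapdh difference as a covariate, 14 at an adjusted p under 0.01, and 5 in males alone. With the covariates chosen after seeing the data it was 14 (adipocyte level) and 4 (fibroblast level). The count for the transgene under FG-3149 was 19 and became 8 at an adjusted p under 0.01, 10 in females and 7 in males. It was 13 with the Gapdh difference, 10 with the macrophage level and 4 with the fibroblast level. For the antibody in PKCε mice, 3 became 1 in males alone, with the fibroblast level, and without the lung-high arrays. For the antibody in FVB mice, 2 became 0 at an adjusted p under 0.01, in females, in males, with the adipocyte level and without the atrial-high arrays, and 1 with array weights or with only the groups compared. For the interaction of line and antibody, 2 became 0 at an adjusted p under 0.01, in males and without the atrial-high arrays, 1 in females, with the adipocyte level, with quantile normalization and without the lung-high arrays, and 4 with the macrophage level. The 1 call of sex and transgene became 0 with the mean of probe sets, the second probe set, quantile normalization and only the groups compared.

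The replicate numbers did not pair the mice. With the replicate block, 47 of the 53 changes were kept, and the counts of the antibody in FVB mice and of the interaction of line and antibody were 1 each.

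Signs turned in 3 settings. With the fibroblast level, under IgG, the values were 0.083 for Ccl4, 0.023 for Ccr3, -0.016 for Cxcl16, 0.17 for Cxcl17 and 0.054 for Cxcr2, and under FG-3149 they were 0.22 for Ccl4, 0.039 for Ccr3, 0.0081 for Ccr4, 0.0039 for Cxcl12, -0.39 for Cxcl16, 0.24 for Cxcl17, 0.054 for Cxcr2 and -0.027 for Cxcr4. In males alone Ccr1 was at -0.15 and Cx3cl1 at -0.12 under IgG, and Cxcl13 at 0.010 for the antibody in FVB mice. With the second probe set Cx3cl1 was at -0.25 under IgG and Cxcl12 at 0.15 under FG-3149. The fibroblast level differed between the lines, and the cause of these changes was not tested.

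Leaving out 1 array gave 20 to 24 calls for the transgene under IgG, 13 to 21 under FG-3149, 3 to 5 for the antibody in PKCε mice (5 without PKCε FG-3149 replicate 3), 0 to 3 for the antibody in FVB mice (0 without FVB IgG replicate 2, and 1 without FVB IgG replicate 1 or FVB FG-3149 replicate 5, 6, 7 or 11), 1 to 3 for the interaction of line and antibody, 4 to 7 for sex (7 without FVB IgG replicate 8), 0 to 2 for sex and transgene (0 without FVB IgG replicate 6, 2 without PKCε IgG replicate 6) and 0 to 0 for sex and antibody. Under IgG, Ackr4 lost its call in 5 such runs (0.24 to 0.27), Cxcl17 in 4 (-0.33 to -0.27) and Cxcr2 in 7. Ccr3 lost it without FVB IgG replicate 10 (-0.07), Cxcl11 without PKCε IgG replicate 8 (-0.20) and Cxcr5 without FVB IgG replicate 2 (-0.11). Under FG-3149, Ccr4 lost it in 26 runs, Cxcl12 in 21, Cxcr6 in 13, and Ccl4 and Cxcl17 in 11 each. The deposited ratios hold no measure of signal over background, so a small change of a dim receptor cannot be told from noise near background.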

Other observations

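In interferon-γ signalling, which acts upstream of the CXCR3 ligands, Ifngr2 and Jak1 differed under FG-3149 in opposite directions in the lines. Ifngr2 was higher by 0.44 under FG-3149 in PKCε mice (adjusted p = 0.000425) and was at -0.33 in FVB mice (adjusted p = 0.00751), with an interaction of 0.77 (adjusted p = 2.05e-05). The kinase Jak1 was at -0.31 in PKCε mice and 0.27 in FVB mice (adjusted p = 0.00268 and 0.0075), with an interaction of -0.58 (adjusted p = 0.000101). Irf1, an interferon-induced factor, was higher in both lines, by 0.32 in PKCε mice and 0.35 in FVB mice (adjusted p = 0.0138 and 0.00715). Of the CXCR3 ligands themselves, Cxcl9 differed by 0.63 and 0.69 in PKCε and FVB mice and was not called (adjusted p = 0.147 and 0.112). For the antibody in FVB mice 9% of all genes were called, and 1.75% without the atrial-high arrays. For the interaction of line and antibody these shares were 3.86% and 1.02%. Values of Ifngr2, Jak1 and Irf1 without those arrays are not given here.

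Syndecans, cell surface proteoglycans that bind chemokines, were also called. Sdc4 was at -0.74 and Sdc1 at -0.61 under FG-3149 in FVB mice (adjusted p = 0.000321 and 0.00185), and the interaction of line and antibody was 0.65 for Sdc4 (adjusted p = 0.0406). Values of Sdc4 and Sdc1 without the atrial-high arrays, many of them FVB IgG arrays, are not given here. Sdc2 was higher in PKCε mice under IgG by 0.70 (adjusted p = 3.73e-11) and in females by 0.28 (adjusted p = 4.72e-05).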
